A study of Mus musculus with 18 samples.

Results

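The forebrain and the midbrain of the same mice were compared at P25 (postnatal day 25) by mRNA sequencing. The comparison used the 6 forebrain and the 6 midbrain libraries, 12 of the 18 libraries of the series, taken by the region named in their labels. The hindbrain libraries served as a reference for the region markers and in a check of the mouse labels. Of the 6 mice, 3 were wild-type and 3 carried Fmr1CRE, a base change knocked in by CRISPR/Cas9 at the mouse position orthologous to a human variant in a cis-regulatory element of Fmr1, on a C57BL/6 background. The labels place all 6 mice in the same litter, and neither a treatment nor the founder line of the mutant mice is named for these libraries. By the labels each mouse gave 1 forebrain and 1 midbrain library, so the mouse was used as a block and genotype was only a check on the region difference.

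The forebrain holds the cerebral cortex, hippocampus, striatum and olfactory structures together with thalamus and hypothalamus, and the midbrain holds the colliculi, the dopamine neurons of the substantia nigra and ventral tegmental area, and much of the dorsal raphe. The position of a neuron along the neural tube is set in the embryo by transcription factors, many of which neurons keep expressing after birth. The main output cells of the striatum are medium spiny neurons, which receive dopamine through D1 and D2 receptors and signal through cAMP. Dopamine and serotonin neurons send axons to the forebrain, while the mRNA of their transporters and synthetic enzymes stays largely in the cell bodies.

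The sequences 5′ to 3′ around the transcription start of the genes that lead the account are shown first, because striatal signalling genes and midbrain transcription factors gave a clear contrast between the regions. They are the 2 striatal genes and the 2 midbrain transcription factors with the largest difference among the list members that have a RefSeq promoter (build GRCm38.p6, 250 bases before to 50 after the start). Capitals mark every match, on either strand, to any of 5 short motifs. The cAMP response element was searched as TGACGTCA. The core bound by homeodomain proteins was searched as TAATTA and the core bound by GATA factors as AGATAA. The GC box was searched as GGGCGG, and the TATA box of core promoters was searched as TATAAA.
Rgs9, chr11:109298132-109298431, minus strand: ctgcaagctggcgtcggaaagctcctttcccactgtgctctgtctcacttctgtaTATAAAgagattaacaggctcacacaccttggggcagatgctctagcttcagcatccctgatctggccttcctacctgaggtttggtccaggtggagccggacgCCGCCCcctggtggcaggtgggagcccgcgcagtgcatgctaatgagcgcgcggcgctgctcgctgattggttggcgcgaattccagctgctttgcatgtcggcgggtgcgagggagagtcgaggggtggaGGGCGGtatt
Gpr6, chr10:41072241-41072540, minus strand: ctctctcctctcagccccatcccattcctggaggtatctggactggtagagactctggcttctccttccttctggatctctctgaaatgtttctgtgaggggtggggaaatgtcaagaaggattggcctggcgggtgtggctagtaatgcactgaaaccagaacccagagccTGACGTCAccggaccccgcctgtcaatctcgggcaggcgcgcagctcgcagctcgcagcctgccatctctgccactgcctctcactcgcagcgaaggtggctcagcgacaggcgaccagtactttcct
Pou4f2, chr8:78436598-78436897, minus strand: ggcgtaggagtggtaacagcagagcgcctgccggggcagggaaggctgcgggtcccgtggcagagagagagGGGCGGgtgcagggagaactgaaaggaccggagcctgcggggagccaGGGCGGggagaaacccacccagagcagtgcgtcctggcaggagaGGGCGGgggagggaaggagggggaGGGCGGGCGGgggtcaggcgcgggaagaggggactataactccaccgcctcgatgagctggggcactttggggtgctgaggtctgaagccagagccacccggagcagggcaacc
En1, chr1:120602237-120602536, plus strand: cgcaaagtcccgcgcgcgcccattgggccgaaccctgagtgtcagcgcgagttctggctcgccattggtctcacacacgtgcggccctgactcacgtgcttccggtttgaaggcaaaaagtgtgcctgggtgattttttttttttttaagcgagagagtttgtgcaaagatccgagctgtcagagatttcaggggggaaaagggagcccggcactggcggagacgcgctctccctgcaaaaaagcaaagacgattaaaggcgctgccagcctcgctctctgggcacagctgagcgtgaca

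Depth was even, with 23904721 to 28061185 counts on genes per library, and each level is in CPM, the counts of a gene relative to the total of its library, scaled by TMM over the 12 libraries unless it says otherwise. The test was edgeR's quasi-likelihood test with the mouse as a block, adjusted by Benjamini-Hochberg over the 18316 genes tested, and a gene was called at an adjusted p under 0.05. Every log2 difference is forebrain minus midbrain. The mouse labels of the forebrain libraries labelled replicate 3 are in doubt. Between the wild-type and the Fmr1CRE mouse of that number, 20 genes differed by a log2 of 3 or more both in midbrain and in hindbrain with a shared sign, and of these 10 differed as much in the opposite direction in forebrain and 2 in the same direction. The other 14 pairs of mice had between 0 and 5 such opposite genes among 4 to 28, and in some of them opposite genes were also as many as or more than those in the same direction, such as 4 and 4 of 10 between Fmr1CRE replicate 1 and wild-type replicate 2 and 4 and 0 of 13 between wild-type replicates 1 and 2. Whether libraries were exchanged is therefore not settled, and counts are given without the replicate 3 mice where they moved. The region of each library was taken from its count column, whose name gives the same mouse and region as the sample title, whereas most transcript files, which were not used, carry the name of another mouse or region than the record they are attached to.

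The regions were also checked with their markers. The list of cortical projection neuron genes summed to 2082 to 2348 CPM in forebrain and 1266 to 1920 in midbrain, against 497 to 581 in hindbrain, where levels are scaled over all 18 libraries. Tbr1, a transcription factor of deep cortical layers, was present in every midbrain library, from 23.2 to 54.7 CPM. Cerebellar genes, the reverse case, were present in midbrain: the list of 12 summed to 154 to 189 CPM in forebrain, 463 to 1147 in midbrain and 1306 to 2800 in hindbrain. The 15 Hox genes, which mark the hindbrain and spinal cord, summed to at most 0.204 CPM in forebrain and to 0.338 to 6.06 in midbrain, against 141 to 224 in hindbrain. The midbrain libraries therefore held mRNA of telencephalic and cerebellar type genes, and the part of neighbouring tissue in the differences below was not tested. In bulk tissue, fewer cells of a type and less RNA per cell cannot be told apart.

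In the blocked fit of all 6 mice, 1678 genes were higher in forebrain (9.16% of the genes tested) and 1658 were higher in midbrain (9.05%), which is 18.2% in either direction. The median log2 difference over all genes tested was 0.02, and it was 0.57 among genes called higher in forebrain and -0.55 among those called higher in midbrain. A log2 difference of 1 or more was reached by 306 of the genes called higher in forebrain (1.67%) and 323 of those called higher in midbrain (1.76%). At a log2 difference of 2 or more the numbers were 40 and 98, so the largest differences lay on the midbrain side. Several of the leading genes of that side were higher still in hindbrain, on the scale of 18 libraries. Cnpy1 ran from 189 to 378 CPM there and 33.4 to 133 in midbrain, and Sycp1 from 10.2 to 23.0 and 2.07 to 6.38. Others were not, such as Slc6a3, at most 0.288 in hindbrain and 20.5 to 45.1 in midbrain. The 6 forebrain and the 6 midbrain values did not overlap for 2166 genes (11.8%), 1079 of them higher in forebrain. Of the protein-coding genes tested 19.6% were called, and of the lincRNAs 14.5%. Without both mice labelled replicate 3 the calls were 871 higher in forebrain and 1400 higher in midbrain. Of the 629 genes with a large difference 473 were still called and 629 had the same sign. These genes were chosen in a fit that held the same libraries, so the shared sign is no separate check. Leaving out single mice moved the forebrain count to 1019 without wild-type replicate 1 and to 1090 without wild-type replicate 2, and the midbrain count to 968 without wild-type replicate 1 and to 1094 without Fmr1CRE replicate 2.

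Genes of striatal medium spiny neurons led the forebrain side. All 20 listed genes were called higher in forebrain, with a median log2 difference of 1.70, and the list sum was 1541 to 3741 CPM in forebrain and 585 to 1327 in midbrain. Without both replicate 3 mice 14 of the 20 were called.
Adora2a, the adenosine receptor of D2-type medium spiny neurons, had a lowest, median and highest value of 27.0, 55.5 and 93.1 CPM in forebrain and of 2.34, 5.05 and 24.0 in midbrain. Its log2 difference was 3.27 (SE 0.47, adjusted p = 0.00291). The 6 forebrain values all lay above the midbrain values, with Fmr1CRE replicate 1 the lowest in forebrain and Fmr1CRE replicate 2 the highest in both regions.
Rgs9, which speeds the end of G protein signalling at dopamine receptors, was at 60.4, 73.1 and 113 CPM against 8.99, 13.4 and 31.5. The log2 difference was 2.46 (SE 0.19, adjusted p = 0.000204). No forebrain value reached down to the midbrain range, and its promoter is the one printed above with a match to the TATA box and 2 to the GC box.
Ppp1r1b, which encodes the phosphatase inhibitor DARPP-32, had 174, 286 and 402 CPM in forebrain and 41.1, 52.6 and 134 in midbrain, a log2 difference of 2.21 (SE 0.16, adjusted p = 0.000174). The groups did not overlap, and Fmr1CRE replicate 2 was again the highest midbrain library.
The orphan receptor gene Gpr6 was at 7.09, 12.4 and 16.6 CPM in forebrain and 1.15, 1.99 and 5.91 in midbrain, a log2 difference of 2.35 (SE 0.27) with no overlap between the regions. The dopamine receptor genes followed: Drd1 differed by 2.32 (SE 0.30, adjusted p = 0.00174), with 1 midbrain library inside the forebrain range, and Drd2 by 1.37 (SE 0.15, adjusted p = 0.000942) without overlap. Drd2 is also made by dopamine neurons themselves, and its midbrain values ran from 8.66 to 18.5 CPM. Of the cAMP and G protein genes, Pde10a, Adcy5 and Gng7 differed by 1.59, 0.98 and 1.81, and of the peptide precursors Penk, Pdyn and Tac1 by 1.56, 1.32 and 0.97.
The transcription factors of the list, Rarb, Isl1, Foxp1, Meis2 and Six3, were called at log2 differences of 1.76, 2.22, 1.10, 0.87 and 0.81.

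**Figure D1:**
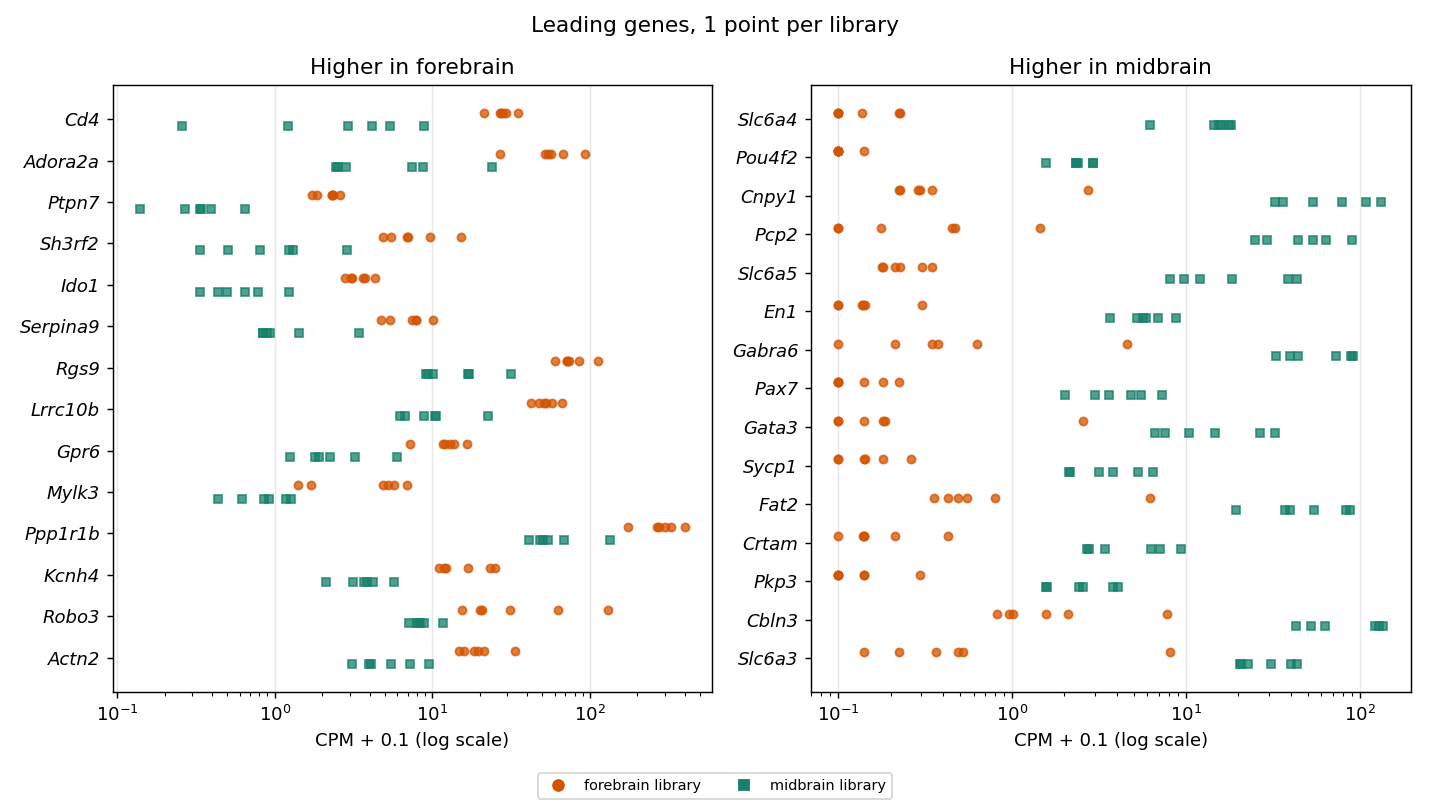
CPM plus 0.1 on a log axis of leading genes, 14 higher in forebrain and 15 higher in midbrain, with 1 circle per forebrain and 1 square per midbrain library. The forebrain and midbrain points of each gene do not overlap, which the rule that chose the genes required, and several midbrain genes have forebrain points at the left edge, at or near 0 CPM.

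Among the other leading forebrain genes were Sh3rf2, a scaffold and ubiquitin ligase, at 4.77 to 15.2 CPM against 0.238 to 2.79 (log2 difference 3.09, SE 0.33), and the potassium channel gene Kcnh4 at 11 to 25 against 2.03 to 5.65 (2.15, SE 0.30). Lrrc10b, a leucine-rich repeat gene, lay at 42.2 to 66.7 CPM in forebrain and 6.12 to 22.5 in midbrain, and its log2 difference was 2.42 (SE 0.18). Actn2, an actin crosslinker, lay at 14.6 to 33.4 against 3.01 to 9.40 (1.96, SE 0.14). Robo3, known as an axon guidance receptor of commissural neurons, was uneven among the forebrain libraries, at 130 CPM in Fmr1CRE replicate 1, 63.1 in Fmr1CRE replicate 2 and 15.4 to 31.1 in the other four, against 6.99 to 11.7 in midbrain. Its call was lost without Fmr1CRE replicate 2 (adjusted p = 0.0549), and that of Mylk3, a myosin kinase gene, without wild-type replicate 1 (0.0541) or 2 (0.0516).
Cd4, which in T cells encodes the coreceptor of the helper class, had the largest difference of the rule's genes higher in forebrain. It lay at 21.3, 27.5 and 35.0 CPM in forebrain and at 0.158, 3.42 and 8.70 in midbrain (log2 difference 3.28, SE 0.54, adjusted p = 0.00488). Forebrain and midbrain values did not overlap, and the hindbrain libraries had at most 1.44 CPM on the scale of 18 libraries. Other T cell genes, chosen after their values were seen, were low: Cd3e had 5 counts over the 6 libraries of each region, Cd3d 5 in forebrain and 21 in midbrain, with at most 0.753 CPM in a library, Cd3g 8 in forebrain and 4 in midbrain, Cd8a 18 and 14, and Trbc1 0 and 3. Trbc2, a T cell receptor constant region, was higher in forebrain (13.3 to 18.5 CPM against 3.30 to 5.95, log2 difference 1.67, adjusted p = 0.000235), and Trac was higher in midbrain (-1.48, adjusted p = 0.011).

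Cortical projection neuron genes differed less than striatal ones. Of 20 listed genes 9 were higher in forebrain and 2 in midbrain, with a median log2 difference of 0.52, and without both replicate 3 mice 4 and 2 were called. Lamp5 led at 1.12 (SE 0.15, adjusted p = 0.00193), with 87.7 to 141 CPM in forebrain and 37.1 to 54.2 in midbrain. Mef2c, a transcription factor of neuronal maturation, differed by 0.88, Emx1, which patterns the cortex, by 0.80, and Tbr1 of deep layers by 0.74. The 2 members higher in midbrain were Nr4a2 and Etv1, at -1.74 and -0.77. Nr4a2 is also a factor of dopamine neurons and stands in that list too. Neurod6, also used as a cortical marker, was not called, with a log2 difference of 0.00 (SE 0.13), and the 6 values of each region overlapped.
Of 12 hippocampal genes 1 was higher in forebrain, Ociad2, and 3 were higher in midbrain, C1ql2, Fibcd1 and Prox1, at -1.65, -1.29 and -0.71. Prox1 marks dentate granule cells, and its values overlapped between regions, at 17.6 to 37.0 CPM in forebrain and 33.3 to 61.3 in midbrain.
Olfactory bulb and neuroblast genes were higher in forebrain in 9 of 12 members and in midbrain in 1. The homeobox genes Dlx1, Dlx2, Dlx5 and Dlx6, which specify GABA neurons of the ventral telencephalon, differed by 1.36, 1.37, 1.5 and 1.63, and the zinc finger gene Sp8 by 1.92 (SE 0.32, adjusted p = 0.00546). Dcx, of migrating neuroblasts, was at 39.1 to 44.6 CPM in forebrain and 25.1 to 29.8 in midbrain without overlap. Of 12 cortical interneuron genes 5 were higher in forebrain and 3 in midbrain, with 3 forebrain calls without Fmr1CRE replicate 3 and 2 without both replicate 3 mice. The peptide genes Npy and Vip were higher in forebrain (0.99 and 0.83), whereas Pvalb, the parvalbumin gene of fast-spiking interneurons and Purkinje cells, was higher in midbrain, at 88.2 to 205 CPM against 39.7 to 53.1 (-1.52, SE 0.17). Sst was not called, at 112 to 127 and 99.9 to 116 CPM.

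Midbrain transcription factors lay on the other side. Of 25 listed genes 22 were called higher in midbrain and 0 in forebrain, with a median log2 difference of -3.46, and 19 were called without both replicate 3 mice. In the 3 that were not called, Gata2, Otx1 and Otx2, the log2 difference was -0.09, 0.29 and -0.59. The list sum was 21.4 to 31.0 CPM in forebrain and 110.5 to 195.5 in midbrain. Hindbrain lay inside the midbrain range, at 120.4 to 159.7 CPM on the scale of 18 libraries. As a sum, the list set midbrain apart from forebrain and not from hindbrain. Members went both ways on that scale. En2 ran from 20.2 to 40.9 CPM in hindbrain and 9.23 to 23.1 in midbrain, and En1 from 1.31 to 2.96 and 3.66 to 9.01.
En1, which maintains midbrain dopamine neurons, was at 0, 0.0384 and 0.204 CPM in forebrain and at 3.56, 5.67 and 8.69 in midbrain, a log2 difference of -6.69 (SE 0.48, adjusted p = 0.000174). No midbrain value came near the forebrain range, whose highest library was Fmr1CRE replicate 3. En2 differed by -4.07 (SE 0.31).
Pou4f2, a POU factor of retinal ganglion cells and the superior colliculus, had 1 count over the 6 forebrain libraries and 361 over the 6 midbrain libraries, where it ran from 1.47 to 2.81 CPM. The ratio of the summed counts was 344-fold, with a 95% exact interval of 61.3 to 13620 that covers counting error only. The adjusted p was 0.000145, and the printed promoter of Pou4f2 holds 5 matches to the GC box, a pair of them overlapping.
Pax7 of the dorsal midbrain differed by -6.46 (SE 0.61), with 6 counts over all forebrain libraries. Gata3, of GABA and serotonin neurons, was at 6.53 to 32.5 CPM in midbrain and at most 0.085 in 5 forebrain libraries, with 2.45 in wild-type replicate 2 (log2 difference -6.04, SE 0.84). Foxa2 had 2 counts in forebrain against 112, a ratio of 53.3 with an exact interval of 14.4 to 446. Among the others, Barhl1, Sox14, Tfap2b and Lhx1 differed by -5.35, -4.79, -4.71 and -3.90, and the antisense neighbour Lhx1os by -3.95; the counting is not stated to use strand, so reads of such neighbours may be shared. The Iroquois family, taken by gene symbol after the data were seen, had 5 of 5 tested members higher in midbrain with Irx2 at -3.51 and Irx6 at -1.75.

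The promoters were compared only by their letters. A promoter was found for 12673 of the 18316 genes tested. The GC box letters occurred in 60.8% of them, in 37.2% of the 199 promoters of genes with a large difference in favour of forebrain and in 49.6% of the 232 in favour of midbrain. The TATA box letters occurred in 7.84%, 15.6% and 12.1%, the homeodomain core in 2.89%, 7.54% and 5.6%, and the GATA core in 6.75%, 9.55% and 9.91%. The cAMP response element, matched in the promoter of Gpr6, was in 3.03%, 2.01% and 2.16%. The promoter of En1 held none of these letters.

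Genes of dopamine neurons were higher in midbrain in 15 of 16 tested members, with a median log2 difference of -2.51, and the remaining member, Drd2, was higher in forebrain. En1, Foxa2, Foxa1, Lmx1b and Lmx1a also stand in the list of midbrain transcription factors, so the counts of these lists are not separate. Slc6a3, the dopamine transporter, was at 20.3, 26.7 and 43.5 CPM in midbrain. In forebrain it lay between 0.0407 and 0.425 CPM in 5 libraries and at 8.0 in Fmr1CRE replicate 3, and the log2 difference was -5.52 (SE 0.78, adjusted p = 0.00255). The groups did not overlap even with that library. Th, the rate-limiting enzyme of dopamine synthesis, was at 17.3 to 35.2 CPM in midbrain and 0.937 to 8.0 in forebrain (-2.60, SE 0.38), and the vesicular transporter Slc18a2 at 17.2 to 40.6 and 0.693 to 5.38 (-3.99, SE 0.38). Chrna6, a nicotinic subunit of dopamine neurons, differed by -3.80 and the receptor gene Ret by -2.43. Pitx3, a factor of dopamine neurons, was too low to be tested, with 2 counts in forebrain and 79 in midbrain, a ratio of 37.6 with an exact interval of 10.1 to 316. The dopamine list summed to 166 to 209 CPM in forebrain and 367 to 484 in midbrain. In hindbrain the sum was 474 to 557 on the scale of 18 libraries, so it did not mark midbrain alone. Members went both ways on that scale. Aldh1a1 ran from 300 to 394 CPM in hindbrain and 126 to 165 in midbrain. Slc6a3 was at most 0.288 in hindbrain and 20.5 to 45.1 in midbrain.
Serotonin and noradrenaline genes were higher in midbrain in 6 of 9 tested members, among them Gata3, which also stands in the list of midbrain transcription factors. Slc6a4, the serotonin transporter, had the largest log2 difference of all named genes, -8.11 (SE 0.48, adjusted p = 0.000145). It had 7 counts over the 6 forebrain libraries and was at 6.13, 15.6 and 18.2 CPM in midbrain, where Fmr1CRE replicate 2 was low. Tph2, which makes serotonin, differed by -3.55 (SE 0.24) and ran from 8.67 to 32.5 CPM in midbrain. The noradrenaline transporter Slc6a2 and the enzyme gene Dbh differed by -5.34 and -3.47. Their cell bodies lie in the locus coeruleus of the hindbrain, and the midbrain values spread widely, from 0.588 to 10.2 CPM for Slc6a2. The serotonin factor Fev was not tested, with 1 count against 219 (ratio 209, exact interval 37.0 to 8276).
Of the 8 tested cholinergic and motor genes 3 were higher in midbrain, Calca, Prph and Slc10a4, and 1 in forebrain, Isl1, and the forebrain count was 0 when any mouse but Fmr1CRE replicate 1 was left out. Chat, which makes acetylcholine, was at 0.856 to 15.3 CPM in forebrain and 1.42 to 8.48 in midbrain and was not called.

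Thalamic and habenular genes, from structures counted anatomically to the forebrain, were higher in midbrain in 7 of 18 members and in forebrain in 0. The list sum was 294 to 594 CPM in forebrain and 673 to 871 in midbrain. Tcf7l2, a factor of thalamic and midbrain neurons, differed by -1.46 (SE 0.22), at 10.3 to 36.4 CPM against 46.2 to 85.8, and Slc17a6, which loads glutamate into vesicles in subcortical neurons, by -1.36 (SE 0.18). Without both replicate 3 mice 4 members were called, and without Fmr1CRE replicate 2 the count was 7 higher in midbrain and 3 higher in forebrain. Among the members not called were Prkcd (-0.24), Synpo2 (0.02) and Gbx2 (0.52).
Hypothalamic genes were uneven between libraries, and 23.1% of tested members were called against 18.2% of all genes tested. Of 13 tested members Crh was higher in forebrain and Otp and Cartpt in midbrain, with 1 midbrain call left when Fmr1CRE replicate 2 or 3 or wild-type replicate 1 or 2 was left out and 2 forebrain calls without Fmr1CRE replicate 1. Pmch, the precursor of melanin-concentrating hormone, ran from 0.163 to 45.4 CPM in forebrain and from 0.237 to 57.9 in midbrain, and Oxt, the oxytocin gene, from 1.43 to 18.6 and from 0.135 to 15.1. Both ranges overlapped almost fully, with SEs of 1.95 and 1.58 on the log2 scale.

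All 12 cerebellar genes were higher in midbrain, and 11 without both replicate 3 mice. Pcp2 of Purkinje cells was at 24.9, 48.9 and 89.7 CPM in midbrain and at most 0.367 in forebrain other than 1.35 in Fmr1CRE replicate 2 (log2 difference -7.26, SE 0.57). Gabra6, the GABA-A subunit of granule cells, was at 32.7 to 91.0 against at most 4.45 (-6.68, SE 0.62), and Cbln3 at 42.9 to 136 against 0.722 to 7.68 (-5.62, SE 0.38). Each of these genes was higher still in hindbrain, where Pcp2 lay between 102 and 239 CPM on the scale of 18 libraries, and the part of attached cerebellum in the midbrain values was not tested. Fat2 and Cnpy1, also among the leading genes, were at 19.4 to 87.0 and 32.2 to 132 CPM in midbrain, and in hindbrain at 51.0 to 111 and 189 to 378. The Hox genes were too low to be tested. Hoxc4 and Hoxd3 had 0 counts in forebrain and were at least 17.0-fold and 15.2-fold higher in midbrain against a floor of 3 counts over the 6 libraries, at 0.0676 to 0.639 and 0.0338 to 0.877 CPM.

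**Figure D2:**
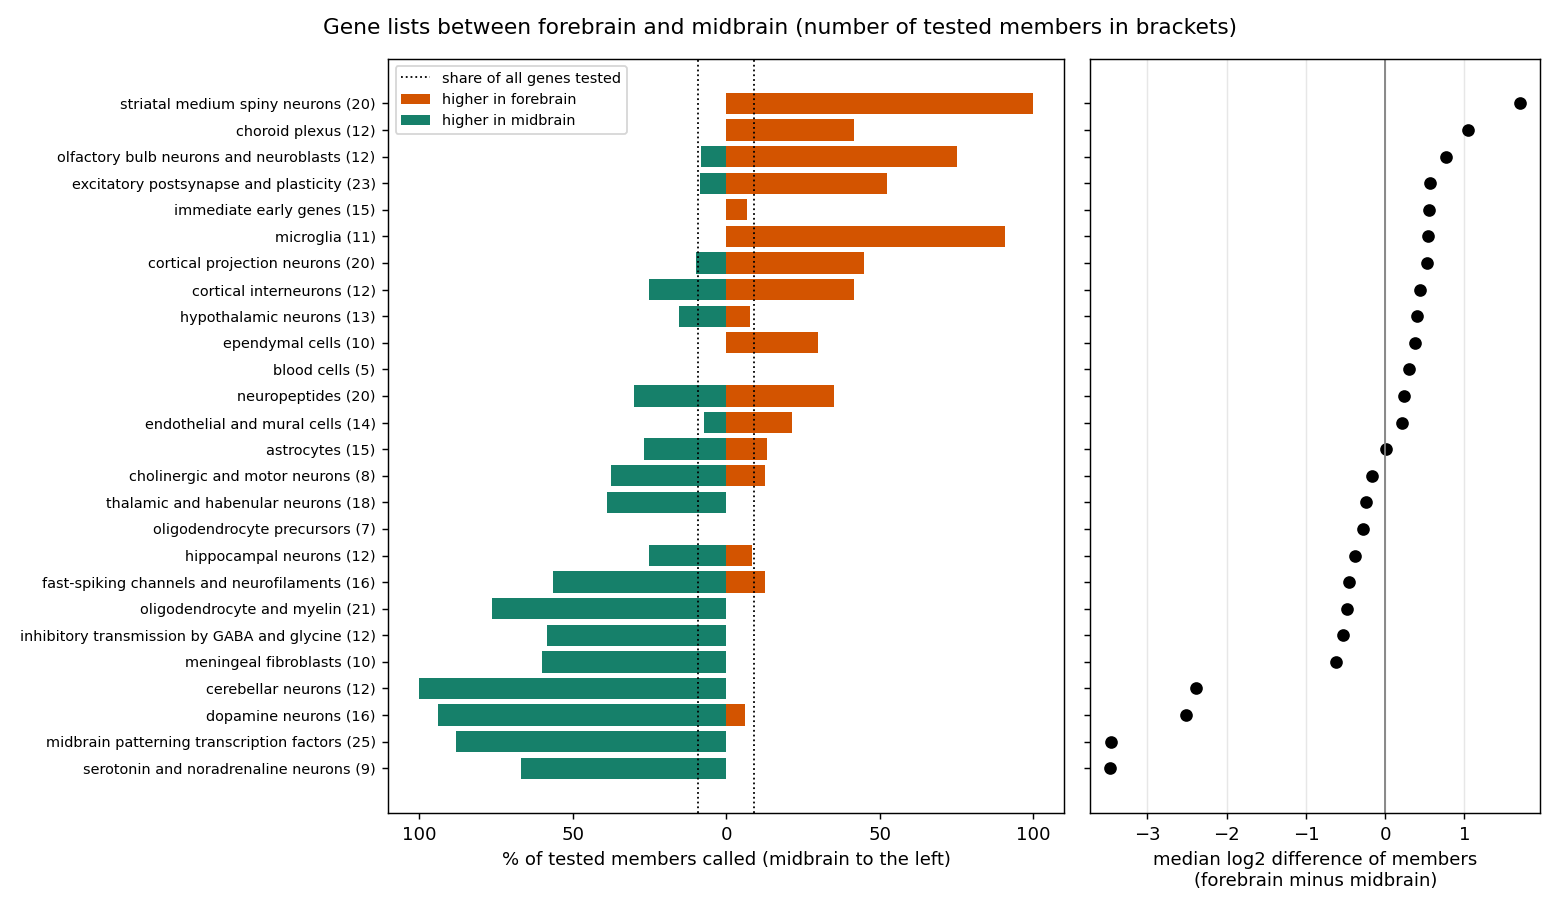
For each list with tested members, the left panel gives the percent of members called higher in forebrain (to the right) or in midbrain (to the left), with dotted lines at the shares of all genes tested, and the right panel the median log2 difference of the members. The striatal list stands at the top with 20 of 20 members called, and the midbrain transcription factors and dopamine neurons stand near the bottom with 22 of 25 and 15 of 16.

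Inhibitory transmission genes were higher in midbrain in 7 of 12 members. The largest differences were in glycine signalling: Slc6a5, the glycine transporter of glycinergic terminals, was at 7.98, 15.1 and 43.5 CPM in midbrain and at 0.0778, 0.120 and 0.245 in forebrain (log2 difference -7.06, SE 0.36, adjusted p = 7.41e-05). The regions did not overlap, and the hindbrain had 87.8 to 174 CPM on the scale of 18 libraries. The glycine receptor gene Glra1 differed by -3.32 (SE 0.22). The GABA synthetic enzyme Gad1 differed by -0.57 (SE 0.09), while Gad2 (-0.31, SE 0.18) and the vesicular transporter Slc32a1 (-0.39, SE 0.15) were not called. Fmr1CRE replicate 1 was low in forebrain for this list, at 899 CPM against 1440 to 1560 in the others.
Genes of the excitatory postsynapse were higher in forebrain in 12 of 23 members and in midbrain in 2. Camk2n1, an inhibitor of CaM kinase II, was at 2034 to 2834 CPM against 896 to 1173 (1.33, SE 0.11), and Nrgn, the calmodulin-binding neurogranin, at 973 to 1268 against 363 to 608 (1.05, SE 0.14). The scaffold genes Homer1, Shank3 and Dlg4 differed by 0.88, 0.82 and 0.63. Of the AMPA receptor subunits Gria1 and Gria4 were higher in midbrain (-0.80 and -0.75), and Gria2 and Gria3 were not called (0.22 and -0.11). The NMDA subunit Grin2b was higher in forebrain (1.01, SE 0.28, adjusted p = 0.0383) with overlapping values, and Grin1 was not called (-0.02).
Of the 16 genes of fast-spiking neurons and neurofilaments 9 were higher in midbrain and 2, Scn4b and Kcns1, in forebrain. Nefh, the heavy neurofilament of large axons, was at 104 to 208 CPM against 40.0 to 59.1 (-1.52, SE 0.12), and the fast potassium channel gene Kcnc1 differed by -1.0. Scn4b, a sodium channel subunit also made by striatal neurons, differed by 1.3 (SE 0.13).
Receptor and channel families were taken by symbol after the data were seen. Nicotinic receptor subunits were higher in midbrain in 7 of 11 tested members and in forebrain in 0. Of 17 ionotropic glutamate receptor subunits 7 were higher in midbrain and 2 in forebrain, the latter 0 or 1 when any mouse was left out. Potassium channels divided, with 22 of 78 higher in forebrain and 15 in midbrain, and 13 and 14 without those mice. The LIM homeobox genes split by member, with Lhx8, Isl1, Lhx2 and Lhx6 higher in forebrain and Lhx1, Lmx1b, Lhx5, Lmx1a and Lhx9 higher in midbrain, 9 of 9 tested; without both replicate 3 mice the numbers were 0 and 3, and the forebrain number was 1 without Fmr1CRE replicate 3 and 2 without wild-type replicate 1 or 2.

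Myelin genes were higher in midbrain in 16 of 21 members and in forebrain in 0. The list summed to 15050 to 18835 CPM in forebrain and 19779 to 23343 in midbrain, without overlap, and to 34937 to 47968 in hindbrain. The differences were moderate: Fa2h, of myelin lipid synthesis, differed by -0.82 (SE 0.12) and the myelin-associated glycoprotein gene Mag by -0.80 (SE 0.13). Mbp and Mobp were not called, at -0.22 (SE 0.08) and -0.16 (SE 0.08). Of the 7 genes of oligodendrocyte precursors 0 were called in the blocked fit of all 6 mice. In other settings some were higher in midbrain: 3 with total counts alone, 2 with DESeq2 and 3 without both replicate 3 mice. Without Fmr1CRE replicate 3 alone 1 was called, and without wild-type replicate 3 alone 2.
Of 15 astrocyte genes 2 were higher in forebrain and 4 in midbrain, against 9.16% and 9.05% of all genes tested. The midbrain calls numbered 2 without wild-type replicate 1. Slc1a2, the main glutamate transporter, was higher in forebrain (0.70, SE 0.14), and Agt, the angiotensinogen gene, was higher in midbrain, at 90.0 to 111 CPM against 21.5 to 61.2 (-1.34, SE 0.22). Gfap was also higher in midbrain (-0.43, SE 0.10).
Microglial genes were higher in forebrain in 10 of 11 members and in midbrain in 0, with 7 called without both replicate 3 mice. The list summed to 478 to 599 CPM in forebrain and 331 to 410 in midbrain, without overlap. P2ry12, the purinergic receptor of resting microglia, was at 50.7 to 57.8 CPM against 29.1 to 40.6 (0.66, SE 0.09, adjusted p = 0.00185), and the complement genes C1qa, C1qb and C1qc differed by 0.57, 0.53 and 0.53. Csf1r was not called (0.38, SE 0.14), though higher in forebrain in 6 of 6 mice.
Vessel genes were higher in forebrain in 3 of 14 members and in midbrain in 1, against 9.16% and 9.05% of all genes tested. Without both replicate 3 mice 0 and 0 were called. Leaving out Fmr1CRE replicate 1 or 3 or wild-type replicate 1 or 2 left 1 forebrain call. Choroid plexus genes were higher in forebrain in 5 of 12. The number was 7 without Fmr1CRE replicate 2 and 4 without wild-type replicate 3. It was 3 without Fmr1CRE replicate 1 or wild-type replicate 2, and 2 without Fmr1CRE replicate 3 or wild-type replicate 1. Without both replicate 3 mice 1 was called. Ttr, the transthyretin gene, was at 343 to 868 CPM in forebrain and 148 to 438 in midbrain (1.37, SE 0.31) with overlap. Ependymal genes were higher in forebrain in 3 of 10, against 9.16% of all genes tested. With any mouse but Fmr1CRE replicate 2 left out 1 was called, and 0 without both replicate 3 mice. Meningeal genes were higher in midbrain in 6 of 10, led by Dcn at -1.56 (SE 0.12), and in 3 without wild-type replicate 1. Blood genes gave 0 of 5 calls; the hemoglobin genes differed by 0.24 to 0.37, with SEs of 0.26 to 0.29.

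**Figure D3:**
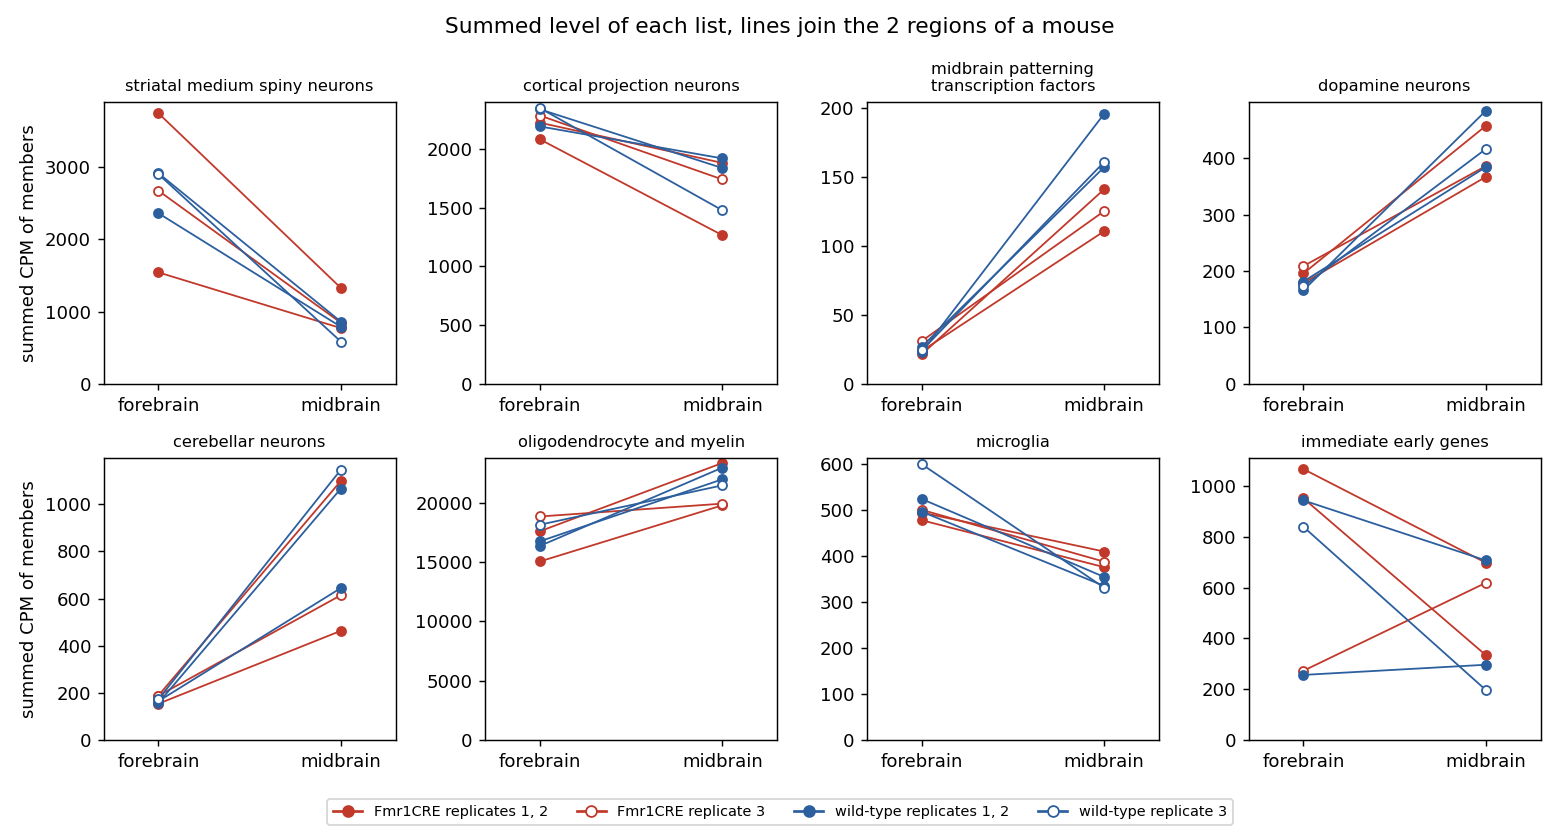
Summed CPM of the members of 8 lists in each library, with a line joining the forebrain and midbrain of a mouse, color for genotype and open points for replicate 3. The striatal, cortical and microglial lines go down from forebrain to midbrain in all 6 mice, the midbrain factor, dopamine, cerebellar and myelin lines go up in all 6, and the immediate early gene lines cross.

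Activity-regulated genes gave 1 call in 15 (6.67%, against 18.2% of all genes tested). It was Egr3, at 49.8 to 118 CPM in forebrain and 25 to 67.5 in midbrain (0.98, SE 0.26, adjusted p = 0.0329). The count was 0 without Fmr1CRE replicate 1, Fmr1CRE replicate 2, wild-type replicate 1 or wild-type replicate 3. The list sum spread from 256 to 1067 CPM among forebrain libraries and from 197 to 707 among midbrain libraries. Fos was at 3.71 to 32.1 and 4.87 to 41.5 CPM and was not called. Neuropeptide genes were higher in forebrain in 7 of 20 members and in midbrain in 6, and 4 and 5 without both replicate 3 mice. Beyond the striatal and interneuron peptides named above, Crh and Cck were higher in forebrain (0.79 and 0.49), and Ucn, Grp, Cartpt, Pnoc, Scg2 and Adcyap1 were higher in midbrain, from -2.34 for urocortin to -0.52 for PACAP.
Genes for cytosolic ribosomal proteins, a family taken after the data were seen, were higher in forebrain in 56 of 76 tested members and in midbrain in 0. The number was 31 with total counts alone and 32 to 51 when mice were left out. The differences were small, with Rps2 at 0.60 (SE 0.07) and Rpl41 at 0.58 (SE 0.06). Many of these genes have near-identical copies, and the counting may have split reads between them.

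Among 10 pairs of related genes, Lhx2 and Lhx9 were the 1 pair with calls in opposite directions. Of the vesicular glutamate transporters, Slc17a6 was higher in midbrain, and Slc17a7, the cortical form, was at 721 to 921 CPM in forebrain and 435 to 825 in midbrain and was not called (0.35, SE 0.11, adjusted p = 0.0545). It passed with DESeq2 (adjusted p = 0.0226) and with at least 10 counts in every library (0.0472). In the LIM pair Lhx2 was higher in forebrain (0.60, SE 0.12) and Lhx9 in midbrain (-1.37, SE 0.29), and both calls were lost without both replicate 3 mice (adjusted p = 0.0702 and 0.0605). Foxp1 differed by 1.10 (SE 0.09) and Foxp2 by 0.24 (SE 0.11), the latter not called except without Fmr1CRE replicate 1 (adjusted p = 0.0305). The calcium-binding pair went the same way, with Calb2 at -1.36 and Calb1 at -0.64, and the call of Calb1 was lost without Fmr1CRE replicate 2, wild-type replicate 1 or wild-type replicate 3 (adjusted p = 0.0525 to 0.0592). Both phosphatase inhibitors were higher in forebrain, Ppp1r1b by 2.21 and Ppp1r1a by 0.88 (SE 0.08). Slc6a11, an astrocytic GABA transporter, was at -0.83, and its call was lost without wild-type replicate 1 (0.0615) or 2 (0.051). Neurod1 was higher in midbrain (-2.19, SE 0.27) while Neurod6 was at 0.00, and Cbln4 was higher in midbrain (-1.26, SE 0.10) while Cbln2 was not called (0.22). Ntng2 was not called (0.29), and Ntng1 was higher in midbrain (-0.74, SE 0.13). Differences within a pair were not tested.

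**Figure D4:**
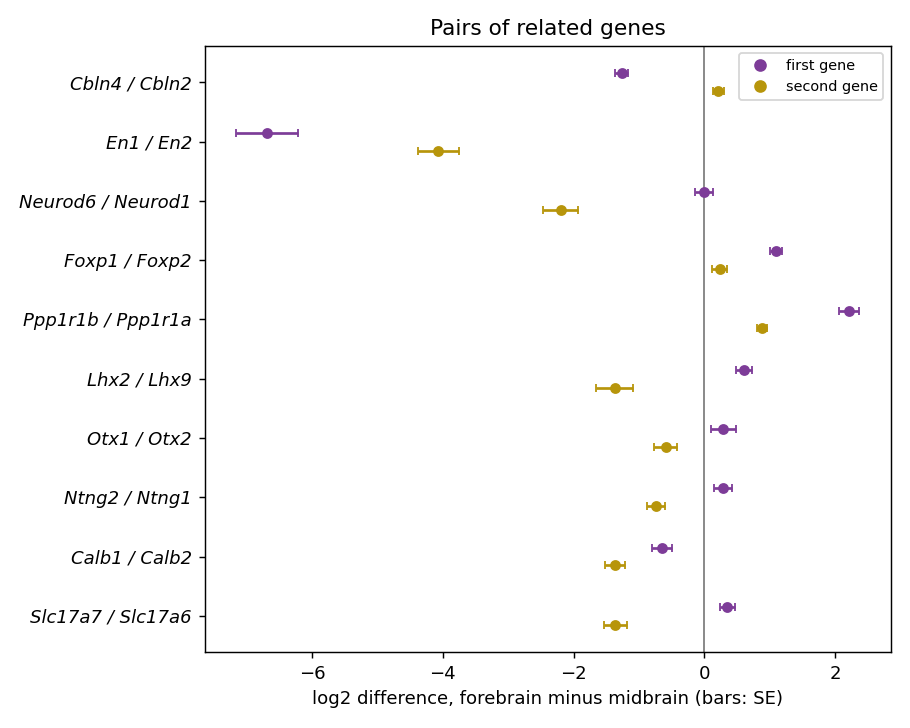
The log2 difference, forebrain minus midbrain, of 10 pairs of related genes, with bars of 1 SE from the blocked fit and the first gene of each pair above the second. En1 and En2 lie farthest to the left, at -6.69 and -4.07, and Ppp1r1b farthest to the right, at 2.21.

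The region difference was then fitted in each genotype alone, with 3 mice each, which share no library. In wild-type mice 504 genes were higher in forebrain (2.72% of 18516 tested) and 578 in midbrain (3.12%). In Fmr1CRE mice 10 were higher in forebrain (0.054% of 18526) and 17 in midbrain (0.0918%). The median SE was 0.17 in wild-type and 0.18 in Fmr1CRE mice, and 4273 and 3923 genes had an unadjusted p under 0.05. The counts moved with the mice labelled replicate 3: without the Fmr1CRE one 140 and 120 genes were called in Fmr1CRE mice, and without the wild-type one 984 and 1604 in wild-type mice. With Fmr1CRE replicate 1 or 2 left out, the Fmr1CRE counts were 0 higher in forebrain and 1 or 2 higher in midbrain, and with wild-type replicate 1 or 2 left out the wild-type counts were 162 or 203 and 215 or 266. Without the block, the counts were 111 and 132 in Fmr1CRE mice and 972 and 1013 in wild-type mice.
The directions were shared to a larger extent than the calls. Of the 503 forebrain calls in wild-type mice also fitted in Fmr1CRE mice, 479 (95.2%) had the same sign there and 389 of those an unadjusted p under 0.05. Of 557 midbrain calls 530 (95.2%) had the same sign and 441 of those such a p. Over all genes tested in both genotypes, 69% had the same sign. The 10 forebrain calls of Fmr1CRE mice, among them Rgs9, Ppp1r1b, Drd1, Gng7 and Pde10a, were all called in wild-type mice too. Of the 17 midbrain calls, among them Slc6a5, Gata3, En2, Tfap2b, Nefh and Syt2, a calcium sensor of fast synapses, 14 were. Among genes with a large difference in all 6 mice that were fitted in both genotypes, the median log2 difference was 1.45 in wild-type and 1.3 in Fmr1CRE mice for the 299 higher in forebrain, and -1.58 and -1.5 for the 322 higher in midbrain. The sign was shared in 299 and 322, but these genes were chosen with the same libraries.

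**Figure D5:**
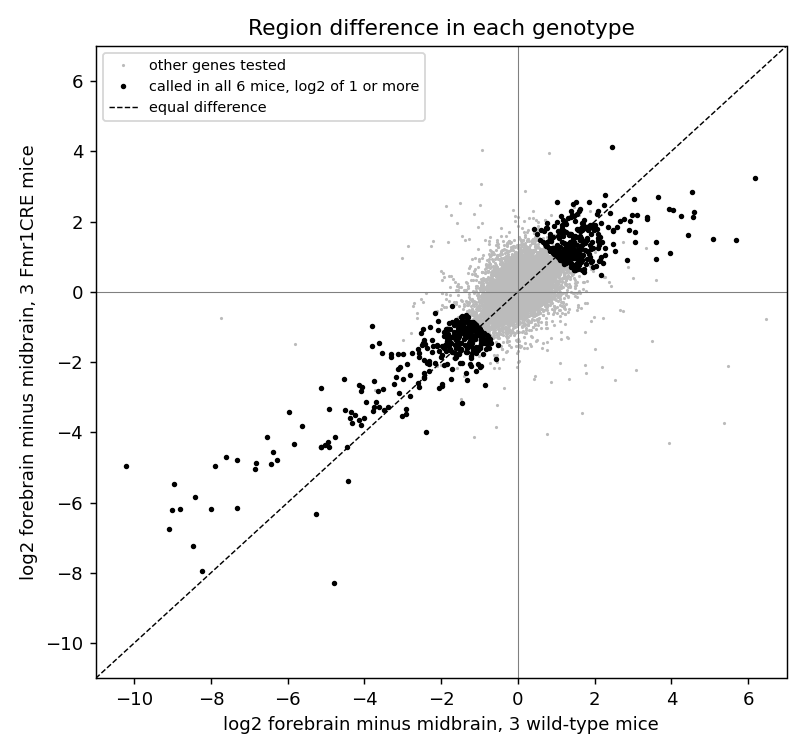
The log2 difference between forebrain and midbrain in the 3 wild-type mice (horizontal) and in the 3 Fmr1CRE mice (vertical), 1 point per gene tested in both. The black points, genes called in all 6 mice with a log2 difference of 1 or more, lie in the lower left and upper right along the dashed line of equal difference, and they were chosen on the same libraries.

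The difference itself was tested by the region by genotype term. It was called for 1 gene (0.00546% of 18316), and 1144 genes had an unadjusted p under 0.05. The gene, 1700030C10Rik, lies on chromosome 12 of GRCm38 from 20814257 to 20815727 on the minus strand, and the term was 6.96 (SE 0.47, adjusted p = 0.0113). In wild-type mice it was at 12.8 to 19.2 CPM in midbrain and 0.0378 to 0.127 in forebrain. In Fmr1CRE mice it was at 0.0799, 6.98 and 7.64 CPM in midbrain and 0.0815, 4.33 and 3.92 in forebrain, so that replicate 1 was near 0 in both regions. The call was lost without both replicate 3 mice (adjusted p = 0.0673), without wild-type replicate 2 or 3 (0.14 and 0.142), without Fmr1CRE replicate 2 (0.217) and without the block (0.666).
Fmr1 itself, on chromosome X from 68678541 to 68717963 on the plus strand, was at 66.8, 77.3 and 80.5 CPM in forebrain and at 59.1, 66.4 and 73.1 in midbrain. The values overlapped, and the forebrain was higher in 5 of 6 mice. The log2 difference was 0.19 (SE 0.08, adjusted p = 0.139 in edgeR), and a two-sided exact sign-flip permutation test over the 6 mice gave p = 0.0625, where 0.03125 is the smallest possible. The difference was 0.18 in wild-type and 0.18 in Fmr1CRE mice.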

How the data were processed

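Poly(A) RNA of 6 mice was sequenced as single-end reads, and the 18 libraries were run in 2 pools whose members are not named, so pools were not tested. The authors deposited whole-number counts per gene, made with salmon in the bcbio_nextgen pipeline and rounded, without normalization. Their processing notes name Salmon 0.14.0, DESeq2 1.30.1 and mm10. The deposited variance-stabilized values and transcript estimates were not used here. In the count table, columns of samples outside the series numbered 0.

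Groups came from the titles, which name mouse, genotype and region. Of 53468 genes, 53431 had a symbol in the GRCm38 annotation. The region effect was fitted in edgeR 4.0.16 (R 4.3.3) with TMM, edgeR's filter on low counts by region, the quasi-likelihood test and the mouse as a block. The mouse numbers pair the libraries because the labels give both to the same animal, which is in doubt for the forebrain of the replicate 3 mice. Deviations from the region means correlated between -0.179 and 0.0749 within mice, with 3 of 6 positive, and between -0.13 and 0.234 between mice. The lowest values within mice were those of the replicate 3 mice, -0.179 in wild-type and -0.0726 in Fmr1CRE. The wild-type replicate 3 forebrain correlated at 0.117 with the Fmr1CRE replicate 3 midbrain, and the reverse pair at -0.0688. Whether these values come from exchanged libraries was not tested. Other settings tried were total counts alone, size factors of DESeq2, the DESeq2 1.42.0 test, no filter, at least 10 counts in every library, no block, and mice left out, and a larger size threshold. Library totals were 23904721 to 28061185 counts. Ratios of genes with 1 to 3 counts carry 95% exact intervals.

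Named were, in each direction, the 15 protein-coding genes with the largest difference among called genes of the same direction in 6 of 6 mice, without overlap and with a mean of at least 1 CPM. Also named were 2 to 5 members of each of the 27 lists by largest difference, the 12 pairs, Fmr1 and genes of the interaction. Lists, members and tests were chosen with earlier results of these data known, and further list members, other genes and the 25 families were chosen after their values were seen. Gene lists are described by counts and medians. Promoters came from RefSeq. Some genes that the rule names are not reported here.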

Additional observations from a re-analysis of the deposited data

Results flagged for a closer look

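In groups of 6 libraries, 21 of 114 tested had 1 library far from the rest. The rule flags about 1 in 20 only where groups are independent and normally distributed. Here several flagged genes lay near 0 CPM and several flags fell on the same library. The count therefore cannot be read as an excess over chance. The midbrain of Fmr1CRE replicate 2 was high in striatal genes. Adora2a was at 24.0 CPM there against 2.34 to 8.63 in the others, Serpina9 at 3.31 against 0.740 to 1.32, and Rgs9 at 31.5 against 8.99 to 16.9. Lrrc10b was at 22.5 against 6.12 to 10.5 and Ppp1r1b at 134 against 41.1 to 68.4, and the striatal list summed to 1330 against 585 to 860. The same library was low in Slc6a4, at 6.13 against 14.3 to 18.2.

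The forebrain of Fmr1CRE replicate 2 was high in cerebellar and granule cell genes, though far below the midbrain. Cnpy1 was at 2.61 CPM against 0.122 to 0.244, Pcp2 at 1.35 against 0 to 0.367, Gabra6 at 4.45 against 0 to 0.530, Fat2 at 6.13 against 0.255 to 0.693, Cbln3 at 7.68 against 0.722 to 1.98 and Crtam at 0.327 against 0 to 0.113. Actn2 was at 33.4 there against 14.6 to 21.1. The forebrain of Fmr1CRE replicate 3 was high in Slc6a3, at 7.99 against 0.0407 to 0.425, and in En1, at 0.204 against 0 to 0.0425. The forebrain of wild-type replicate 2 was high in Gata3, at 2.45 against 0 to 0.085, and Pkp3, at 0.195 against 0 to 0.0408. Pou4f2 was at 0.0407 in the forebrain of Fmr1CRE replicate 1 and 0 in the others. That library was low in the sums of inhibitory transmission genes, at 899 against 1440 to 1560, and of neuropeptides, at 704 against 865 to 956. How far neighbouring tissue contributed was not tested.

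The region difference of 1700030C10Rik differed between the genotypes, with a term of 6.96 in the test of that difference. The call was lost without both replicate 3 mice, without wild-type replicate 2 or 3, without Fmr1CRE replicate 2 and without the block, and with at least 10 counts in every library the interaction gave 0 genes.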

How the results depend on the processing

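With each mouse left out in turn or both replicate 3 mice left out, 871 to 1372 genes were called higher in forebrain and 968 to 1510 higher in midbrain. Calls higher in midbrain with a log2 difference of 1 or more numbered 200 with at least 10 counts in every library, and at a log2 difference of 2 or more the numbers were 40 and 98. With total counts alone 34.1% of all calls were higher in forebrain, against 50.3% with TMM, and 38.4% without both replicate 3 mice. In Fmr1CRE mice, calls higher in forebrain and in midbrain numbered 561 and 883 with DESeq2 and 191 and 272 without a filter. Those higher in forebrain numbered 6 with DESeq2's size factors and 25 with at least 10 counts, and those higher in midbrain 32 with total counts alone. In wild-type mice the numbers were 841 and 968 with DESeq2 and 771 and 962 without a filter, and 910 were higher in midbrain with total counts alone. With mice left out, Fmr1CRE calls ran from 0 to 140 and from 1 to 120, and wild-type calls from 162 to 984 and from 215 to 1604. The interaction gave 30 genes with DESeq2, 16 without a filter, 0 with at least 10 counts and 0 to 8 with mice left out. The cause of these shifts was not tested.

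Without the mouse as a block, all 6 mice gave 2048 and 1951 calls, Fmr1CRE mice 111 and 132, wild-type mice 972 and 1013, and the interaction 0. For 49 named genes, 593 of 618 alternative values kept their direction and their side of the threshold, 10 lost the call and 10 gained it. The 5 others turned the sign of Neurod6, which was 0.0015 with at least 10 counts, 0.036 without the block, and 0.063, 0.070 and 0.013 without Fmr1CRE replicate 2, wild-type replicate 2 and wild-type replicate 3, with a range of -0.14 to 0.070 over the mice left out. Otx2, not called with TMM at -0.59 (adjusted p = 0.0533), was called in 7 alternatives. Genes near 0 in forebrain are limited by depth.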
